A study of Mus musculus with 4 samples.

Results

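A list of 40 genes of the cell cycle and of DNA replication was followed across 4 arrays of mouse bone marrow-derived macrophages. The 40 were chosen by name, as textbook genes of G1 control, DNA replication and mitosis, with earlier results of these data known. They were looked up by gene symbol in the platform annotation. Of the 40, 38 were measured by a probeset with exactly 1 symbol, out of 19938 genes so measured in all. Where a gene had several such probesets, the one with the highest mean over the 4 arrays stood for it. The list was split into 14 replication genes, 16 mitosis genes, of which 15 were measured, and 10 genes of G1 control, of which 9 were measured. Ccnb1, the main mitotic cyclin, had no probeset under its symbol in this annotation. Cdkn1a, which encodes the inhibitor p21, had a single probeset that it shares with a second symbol.

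The wild-type macrophages were grown from marrow of BALB/c animals. The marrow without Stat6 was from the strain labelled 4get/Stat6-/-, in which the signal transducer downstream of the receptor for IL-4 is missing and a 4get reporter allele of Il4 is present. The wild-type mice are not labelled as 4get, so the reporter allele, any other difference in strain and the loss of Stat6 cannot be told apart. In both genotypes bone marrow cells were grown for 7 days with 10% L929 supernatant as a source of M-CSF, then replated and left for a further 24 h with or without IL-4 in the medium. The IL-4 dose is labelled as 10 µg/mL for the samples and in mg/mL for the series, and the labels do not settle which holds. Macrophages were sorted by the surface antigen that Adgre1 encodes before RNA was taken. With 1 array for each genotype in each medium, no value has a replicate error and no difference could be tested, and precision is limited by how few arrays there are. In bulk RNA, fewer cycling cells and less RNA per cycling cell cannot be told apart.

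Every signal is a log2 RMA value, and every difference between arrays is on the same log2 scale. A gene is said to have risen or fallen where it differed by at least 1 on that scale, which is 2-fold, with the higher array at or above a floor of 2.52, the median signal of all probesets with 1 symbol. Of the 38 measured members, 33 reached the floor on at least 1 array and 30 had a mean over the 4 arrays at or above it. Bub1, Bub1b, Cenpe and Kif11, all mitosis genes, and the cyclin gene Ccne2 were under the floor on every array. Shares over all genes are taken from the 9878 genes whose mean reached the floor, or, for a rule of size, from the genes that could have passed it. Stat6 itself was at 7.34 and 6.68 on the wild-type arrays (medium, then IL-4) and at 4.54 and 4.25 on the Stat6-/- arrays, in the direction of the labels. The macrophage markers Adgre1, Csf1r, Cd68, Itgam, Fcgr1, Mertk and Lyz2, 7 of the 8 listed, were between 5.36 and 11.87 on all arrays.

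Cells enter the cycle when D-type cyclins with Cdk4 or Cdk6, then E-type cyclins with Cdk2, inactivate the Rb proteins and release E2F factors, while p27 (Cdkn1b) and p21 (Cdkn1a) hold these kinases back. E2F then drives the genes that license and copy DNA: the Mcm helicase subunits, the clamp Pcna and the enzymes that supply nucleotides. Mitotic genes come on later, under factors that act through CCAAT boxes and the CHR element of their promoters. Macrophages grown from bone marrow divide under M-CSF and slow down as they mature, and STAT6 is the main mediator of transcription in response to IL-4.

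The members of the replication and mitosis groups shared sequence features that were not used to choose them. RefSeq promoter windows on GRCm38.p6, from 250 bases before to 50 bases after the transcription start, were held for 33 of the 40 genes and for 27025 genes in all. Mcm4, Gins2, Ccna2, Aurkb, Ccnd1, Ccnd2 and Ccne2 had no window. Matches were sought on both strands. The CHR element, as TTTGAA or TTCGAA, was found in 11 of 14 mitosis promoters (78.6%), in 2 of 12 replication promoters (16.7%) and in 21.7% of all promoters. An E2F motif, as TTTCGCGC, TTTGGCGC, TTTCCCGC or TTTGGCGG, was found in 6 of 12 replication promoters, in 1 of 14 mitosis promoters and in 2.70% of all. CCAAT was found in 13 of 14 mitosis promoters, in 9 of 12 replication promoters, in 3 of 7 G1 promoters and in 41.1% of all. A STAT6 motif, TTC and GAA with 4 bases between them, was found in 1 of the 33 members, Top2a, against 8.01% of all promoters, and the E-box CACGTG that Myc and Max bind in 3 of 33, Cdk4, Cdk6 and Tyms, against 8.09%. These last 2 motifs were added after the values were seen. CHR can overlap the STAT6 motif, and E2F motifs on opposite strands can overlap each other. A match is a run of letters in this window and not a measured binding site.

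Printed here are the promoters of the 6 genes on which the results below turn most, Pcna, Pclaf and Mcm6 of replication, Ccnb2 and Cenpa of mitosis, and Cdkn1b, 5′ to 3′ on the gene's own strand, with matches to CHR, E2F and CCAAT on either strand in capitals.
Pcna, chr2:132253131-132253430, minus strand: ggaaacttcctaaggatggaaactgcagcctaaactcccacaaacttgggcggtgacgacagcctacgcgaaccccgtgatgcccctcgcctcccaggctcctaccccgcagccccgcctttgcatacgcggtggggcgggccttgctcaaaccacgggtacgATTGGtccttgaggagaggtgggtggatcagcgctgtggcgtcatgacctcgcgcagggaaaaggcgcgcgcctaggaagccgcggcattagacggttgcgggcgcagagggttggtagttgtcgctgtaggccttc
Pclaf, chr9:65890073-65890372, plus strand: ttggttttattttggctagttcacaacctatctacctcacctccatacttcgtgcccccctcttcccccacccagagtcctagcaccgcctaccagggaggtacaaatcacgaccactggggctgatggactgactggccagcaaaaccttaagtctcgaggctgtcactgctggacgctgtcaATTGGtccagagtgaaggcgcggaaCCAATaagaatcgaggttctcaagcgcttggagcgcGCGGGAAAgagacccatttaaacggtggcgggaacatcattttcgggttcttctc
Mcm6, chr1:128359656-128359955, minus strand: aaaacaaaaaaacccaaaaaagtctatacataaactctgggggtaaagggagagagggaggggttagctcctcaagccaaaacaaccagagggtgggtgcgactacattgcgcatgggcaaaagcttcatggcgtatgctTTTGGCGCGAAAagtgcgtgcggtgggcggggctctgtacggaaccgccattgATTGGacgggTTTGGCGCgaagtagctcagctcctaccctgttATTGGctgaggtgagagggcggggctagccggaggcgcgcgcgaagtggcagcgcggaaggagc
Ccnb2, chr9:70421505-70421804, minus strand: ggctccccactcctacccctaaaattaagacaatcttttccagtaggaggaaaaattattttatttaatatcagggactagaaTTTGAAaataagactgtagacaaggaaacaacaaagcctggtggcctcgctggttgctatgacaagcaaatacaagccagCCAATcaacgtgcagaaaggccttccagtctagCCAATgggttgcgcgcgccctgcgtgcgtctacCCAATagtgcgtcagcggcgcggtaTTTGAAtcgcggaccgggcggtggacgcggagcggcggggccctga
Cenpa, chr5:30666636-30666935, plus strand: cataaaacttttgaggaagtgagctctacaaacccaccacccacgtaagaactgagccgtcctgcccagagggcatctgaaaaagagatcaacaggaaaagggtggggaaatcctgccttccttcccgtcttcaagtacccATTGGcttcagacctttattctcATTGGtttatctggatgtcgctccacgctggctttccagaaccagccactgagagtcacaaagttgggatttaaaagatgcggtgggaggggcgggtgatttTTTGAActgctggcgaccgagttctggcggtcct
Cdkn1b, chr6:134920151-134920450, plus strand: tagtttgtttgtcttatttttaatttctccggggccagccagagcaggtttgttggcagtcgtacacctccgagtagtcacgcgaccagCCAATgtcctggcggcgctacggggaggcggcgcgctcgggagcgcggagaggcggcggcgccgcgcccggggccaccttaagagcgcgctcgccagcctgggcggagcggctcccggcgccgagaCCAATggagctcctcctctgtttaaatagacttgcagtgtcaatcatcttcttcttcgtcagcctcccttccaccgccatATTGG
Mcm6 has 3 E2F matches, of which a pair overlap, and 2 CCAAT boxes, while Pclaf has 1 E2F match and 2 CCAAT boxes. Ccnb2 has 3 CCAAT boxes and 2 CHR matches, and Cenpa has 2 CCAAT boxes with 1 CHR match. Pcna has a single CCAAT box and no match to the E2F letters searched, and Cdkn1b has CCAAT boxes only.

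**Figure D1:**
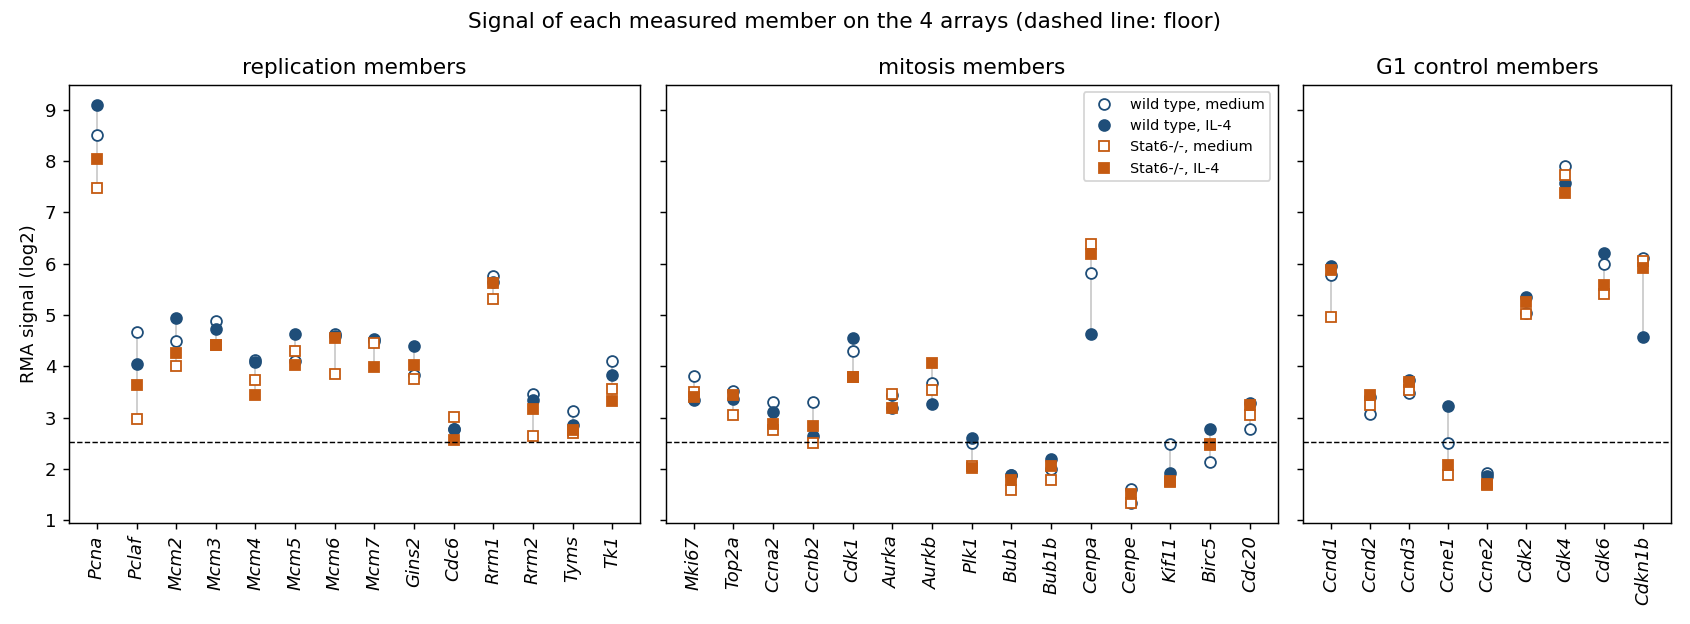
RMA signal on the log2 scale (vertical axis) of the 38 measured members (horizontal axis), with 1 point for each of the 4 arrays and a dashed line at the floor of 2.52. For Pcna, Pclaf and most Mcm genes both Stat6-/- points lie below both wild-type points, while Cenpa and Cdkn1b have their lowest point in wild type with IL-4.

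Most of the 14 replication members were lower in Stat6-/- macrophages than in wild type. In cells cultured with IL-4, all 14 replication members were lower in Stat6-/-, with differences from -1.05 to -0.03 and a median of -0.39, whereas 50.2% of all genes were lower and their median was -0.00. In medium 12 of 14 were lower, with a median of -0.46, beside 64.6% of all genes and a median of -0.12. For 11 of the 14, both Stat6-/- arrays lay below both wild-type arrays, against 26.0% of all genes. In medium 2 of 14 fell, Pcna and Pclaf, and with IL-4 1 of 14 fell, Pcna, and 0 rose in either, where 1.15% and 4.83% of all genes fell and 0.301% and 4.01% rose. The fall of Pclaf held on its chosen probeset only. At a smaller size, a difference of at least 0.5, 5 of 14 were lower and 0 higher in each culture, against 11.8% of all genes lower in medium and 15.3% with IL-4, and 4.55% and 13.5% higher. The pairs of arrays behind the medium and the IL-4 comparison are separate, and each shares an array with the IL-4 effect of either genotype.

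Over all members and both directions, 2 of 30 passed the 2-fold rule between genotypes in medium, against 1.45% of all genes, and 4 of 33 with IL-4, against 8.84%. For IL-4 against medium it was 2 of 33 in wild type, against 9.74%, and 0 of 30 in Stat6-/-, against 0.355%. For the difference of the IL-4 effects it was 3 of 33, against 8.97%. At a difference of at least 0.5 the counts were 11 of 30 (16.3% of all genes), 12 of 33 (28.8%), 9 of 33 (35.2%), 6 of 30 (9.48%) and 14 of 33 (32.7%) in the same order. The members' share lay above that of all genes between genotypes and under it for IL-4 in wild type.

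Pcna, the sliding clamp that holds DNA polymerases on their template, read 8.50 without and 9.10 with IL-4 on the wild-type arrays, and 7.48 without and 8.05 with IL-4 on the Stat6-/- arrays. Without Stat6 the signal fell 2.03-fold in medium and 2.07-fold in IL-4 cultures, and the genotypes did not overlap. With the intensity trend removed the differences were -0.88 and -0.999, both short of the rule. A second probeset annotated to Pcna, which lists the same transcripts, read 8.50, 9.10, 7.47 and 8.04 on the same arrays, so that the 2 probesets cannot be taken as separate measurements. Pclaf, which encodes a small protein that binds the clamp, read 4.67, 4.04, 2.98 and 3.63 in that order, a fall of 3.23-fold in Stat6-/- in medium and a difference of -0.41 with IL-4. Its second probeset read 2.67, 3.17, 2.26 and 2.35, with differences of -0.41 in medium and -0.82 with IL-4, both short of the rule. Both Pclaf probesets were lower in both Stat6-/- arrays, but in wild type the first was lower and the second higher with IL-4.

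The Mcm2 to Mcm7 subunits form the ring that unwinds DNA at the fork. Mcm2 read 4.49 and 4.94 in wild type and 4.00 and 4.26 in Stat6-/-, in medium and with IL-4, and Mcm4 read 4.12 and 4.08 against 3.74 and 3.45. Mcm3 read 4.88 and 4.72 against 4.41 and 4.43, and Mcm6 read 4.63 and 4.59 against 3.84 and 4.55. Mcm7 read 4.50 and 4.53 against 4.45 and 3.98. In 5 of the 6 subunits both Stat6-/- arrays were the lower ones, as for 26.0% of all genes. These 5 are among the 11 of 14 counted above, and the difference was only -0.03 for Mcm6 with IL-4 and -0.05 for Mcm7 in medium. The exception was Mcm5, at 4.11 and 4.63 in wild type and 4.30 and 4.03 in Stat6-/-, where the genotypes overlapped. Gins2, a subunit of the complex that activates the helicase, read 3.84 and 4.40 against 3.74 and 4.03, and Cdc6, which loads the helicase at origins, read 2.78 and 2.77 against 3.004 and 2.56, close to the floor. Both overlapped between genotypes.

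The 4 genes of deoxynucleotide supply each had both Stat6-/- arrays below both wild-type arrays, as 26.0% of all genes did, by as little as -0.03 for Rrm1 with IL-4. Rrm1 and Rrm2 encode the large and the small subunit of ribonucleotide reductase. Rrm1 read 5.76 and 5.65 in wild type and 5.31 and 5.62 in Stat6-/-, and Rrm2 read 3.47 and 3.35 against 2.63 and 3.16. Tk1, thymidine kinase, read 4.11 and 3.82 against 3.56 and 3.33, and Tyms, thymidylate synthase, read 3.14 and 2.86 against 2.70 and 2.76. A second Tk1 probeset gave 2.77 and 3.01 against 2.69 and 2.75. None of these 4 passed the 2-fold rule, and for Rrm1, Rrm2 and Tyms the gap was wider in medium, at -0.45, -0.83 and -0.44, than with IL-4, at -0.03, -0.19 and -0.10.

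Of the 15 measured mitosis genes most were lower in Stat6-/- in medium, by small amounts, and fewer with IL-4, as was so over all genes. In medium 11 of 15 were lower with a median of -0.28, beside 64.6% of all genes, and with IL-4 9 of 15 were lower with a median of -0.10, beside 50.2%. These counts include genes under the floor, which the shares of all genes leave out. Of the 9 mitosis members whose mean reached the floor, 6 were lower in medium and 4 with IL-4. Their medians were -0.32 and 0.05. Both Stat6-/- arrays lay below both wild-type arrays for 5 of 15, of which Bub1 and Kif11 were under the floor throughout and Plk1 on 3 of 4 arrays. Among the 9 mitosis members whose mean reached the floor it was 2, Cdk1 and Ccna2, which is 22.2% against the 26.0% of all genes. The median of the replication members minus that of the mitosis members was -0.28 with IL-4 and -0.18 in medium. This contrast was not tested, since genes are not replicates. By their mean, 6 of 15 mitosis members and 0 of 14 replication members were under the floor, and the part of signal level in the contrast was not tested. With quantile normalization applied again the median gap in medium was 0.027, and with the intensity trend removed it was 0.11, with 10 of 14 replication and 11 of 15 mitosis members lower under both.

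Cdk1, the kinase that starts mitosis, read 4.30 and 4.56 in wild type and 3.79 and 3.80 in Stat6-/-, so that the genotypes did not overlap. Ccna2, the cyclin of S and G2 phase, read 3.30 and 3.10 against 2.75 and 2.88. Ccnb2, a cyclin partner of Cdk1, read 3.31 in wild type in medium and between 2.504 and 2.85 on the other 3 arrays. Mki67, which encodes the Ki-67 antigen, read 3.81 and 3.35 against 3.50 and 3.40, and Top2a, which untangles chromosomes, read 3.52 and 3.37 against 3.04 and 3.44, both with overlapping genotypes. Aurkb, the kinase of the chromosomal passenger complex, was highest in Stat6-/- with IL-4 at 4.07 and between 3.26 and 3.67 elsewhere, 0.81 above wild type with IL-4. Aurka, a kinase of the spindle poles, stayed between 3.19 and 3.46, and Cdc20, which activates the ubiquitin ligase that ends mitosis, between 2.78 and 3.28. Birc5, the survivin gene, was above the floor on 1 array, wild type with IL-4, at 2.77, and Plk1 likewise at 2.61.

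Cenpa, the histone H3 variant that marks centromeres, was higher in Stat6-/-. It read 5.82 without and 4.63 with IL-4 on the wild-type arrays, and 6.39 and 6.20 on the Stat6-/- arrays. With IL-4 it was 2.97-fold higher in Stat6-/-, and in medium the log2 difference was 0.57. It was the 1 member of 38 for which both Stat6-/- arrays lay above both wild-type arrays, against 12.4% of all genes. Of the mitosis members 1 of 11 rose in this comparison, Cenpa, and 0 fell, beside 4.01% and 4.83% of all genes.

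**Figure D2:**
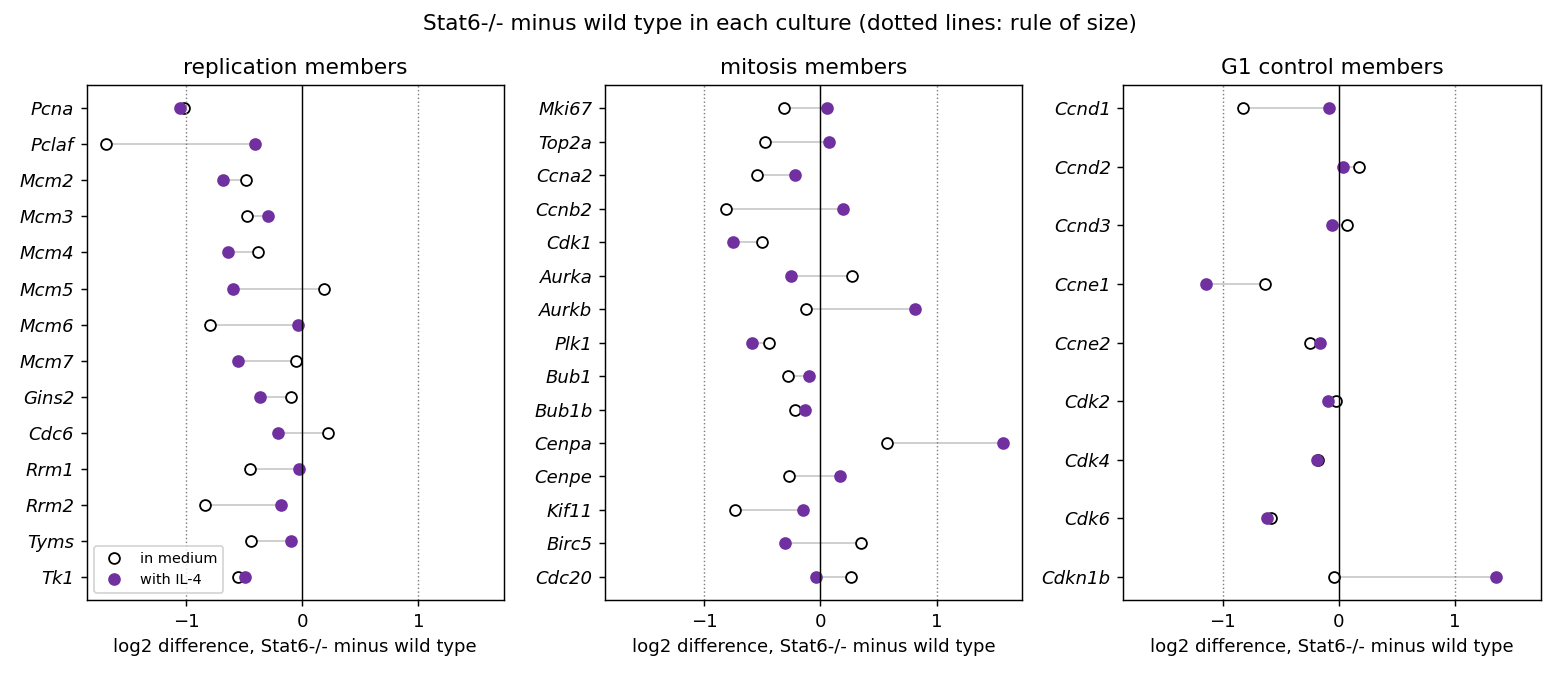
Stat6-/- minus wild type, as log2 differences on the horizontal axis, for each measured member, in medium (open points) and with IL-4 (filled points), with dotted lines at the 2-fold rule. All 14 filled points of the replication members lie below 0, and Cenpa and Cdkn1b with IL-4 stand to the right at 1.57 and 1.35.

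Of the G1 members, 1 of 8 fell in Stat6-/- with IL-4, Ccne1, and 1 rose, Cdkn1b, beside 4.83% and 4.01% of all genes. Cdkn1b was 2.55-fold higher in Stat6-/- than in wild type with IL-4. Ccne1, a cyclin partner of Cdk2 at the start of S phase, read 2.51 in medium and 3.22 with IL-4 in wild type, and 1.88 and 2.08 in Stat6-/-. It was above the floor with IL-4 in wild type alone, so the fall is at least 1.62-fold. The call ended with signals raised to the floor, at -0.70, and with the floor at the 75th percentile, which Ccne1 did not reach. Cdk6, a partner of the D-type cyclins, read 5.99 and 6.20 in wild type and 5.40 and 5.59 in Stat6-/-, with differences of -0.58 in medium and -0.62 with IL-4 and no overlap. Cdk4 differed between genotypes by -0.18 and -0.19, and Cdk2 by -0.02 and -0.09. Ccnd1 read 4.96 in Stat6-/- in medium and between 5.78 and 5.97 on the other arrays. The probeset of Cdkn1a that is shared with a second symbol read 7.14 and 7.06 in wild type and 7.37 and 7.20 in Stat6-/-.

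IL-4 was compared with medium within each genotype, to ask how the cycle genes followed the cytokine. In wild type 2 of 33 members fell, Cdkn1b and Cenpa, and 0 rose, where 6.78% of all genes fell and 2.96% rose. Cdkn1b, the inhibitor p27 of cyclin-dependent kinases, read 6.10 in medium and 4.57 with IL-4, a fall of 2.91-fold, and 6.06 and 5.92 in Stat6-/-. The other 3 arrays lay between 5.92 and 6.10 and the wild-type IL-4 array stood below them. A second Cdkn1b probeset read 4.43 and 3.005 in wild type and 5.09 and 4.78 in Stat6-/-, with the same low array. Cenpa fell 2.29-fold in wild type, and its difference was -0.9995 with quantile normalization applied again and -0.97 with the intensity trend removed, both just short of the rule. In Stat6-/- cells 0 of 30 members passed the rule, where 0.240% of all genes rose and 0.115% fell, and the differences of Cdkn1b and Cenpa were -0.14 and -0.20. The wild-type IL-4 effect minus that in Stat6-/- was -1.40 for Cdkn1b, which passed the rule, and -0.998 for Cenpa, which did not.

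The replication and mitosis groups had medians near 0 with IL-4 in wild type. The median difference was -0.04 over 14 replication members and -0.15 over 15 mitosis members, beside -0.12 over all genes. At a difference of at least 0.5, Pcna (0.60), Gins2 (0.56) and Mcm5 (0.52) were higher and Pclaf was lower (-0.63) among the replication genes, which is 3 of 14 higher against 11.9% of all genes and 1 of 14 lower against 23.3%. Of the mitosis genes Birc5 was higher by 0.63, from under the floor, and Cenpa and Ccnb2 were lower, with Kif11 under the floor at both points. In G1 control Ccne1 was higher by 0.71 and Cdkn1b lower.

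In Stat6-/- cells the members leaned upward with IL-4, with 26 of 38 higher. Among the 30 whose mean reached the floor it was 20, against 42.9% of all genes. Their median was 0.16, beside -0.05 over all genes. At a difference of at least 0.5, 6 of 30 were higher and 0 lower, against 4.43% and 5.05% of all genes. They were Ccnd1 (0.92), Mcm6 (0.71), Pclaf (0.65), Pcna (0.57), Rrm2 (0.53) and Aurkb (0.53). The Stat6-/- array in medium also enters the genotype comparison in medium, where 5 of these 6 had differences from -1.69 to -0.79 and Aurkb one of -0.13, so both statements rest on that array. With the intensity trend removed Ccnd1 just reached the rule, at 1.0003.

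Several G1 cyclins and kinases differed in the same direction with IL-4 in both genotypes, all by less than the rule. Ccnd1, Ccnd2, Ccnd3 and Cdk2 had both IL-4 arrays above both medium arrays, which is 4 of the 7 G1 members whose mean reached the floor, against 12.2% of all genes. The differences in wild type and in Stat6-/- were 0.34 and 0.20 for Ccnd2, 0.27 and 0.14 for Ccnd3, 0.31 and 0.25 for Cdk2, and 0.18 and 0.92 for Ccnd1. Cdk4 and Cdkn1b had both IL-4 arrays below both medium arrays, which is 2 of 7 against 28.3%. Cdk4 differed by -0.33 and -0.34. Mki67 and Cdc6 were the other members below and Gins2, Cdc20 and Bub1b the other members above.

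**Figure D3:**
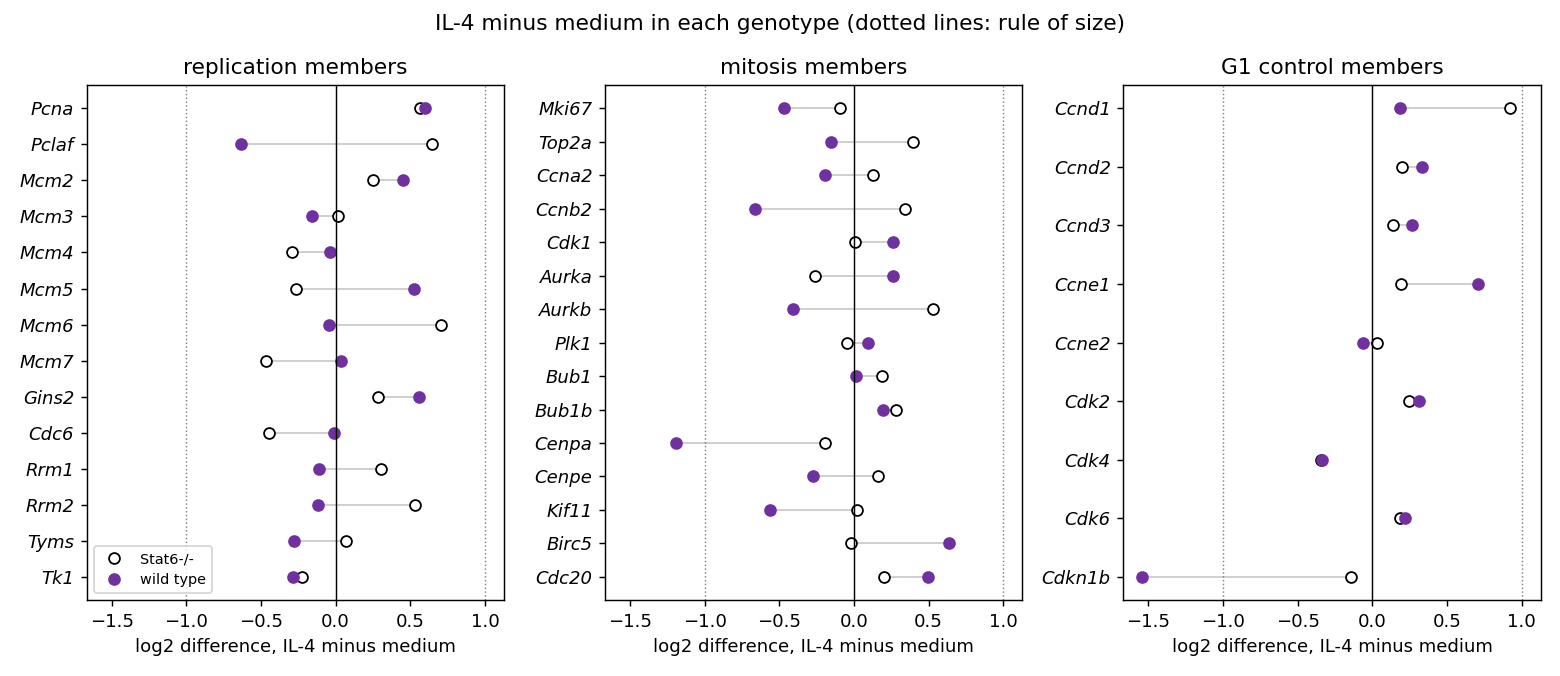
IL-4 minus medium, as log2 differences on the horizontal axis, for each measured member in Stat6-/- (open points) and wild type (filled points), with dotted lines at the 2-fold rule. Cenpa and Cdkn1b in wild type are the points beyond the rule, at -1.19 and -1.54, and Ccnd1 in Stat6-/- is at 0.92.

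The IL-4 effect in Stat6-/- was subtracted from that in wild type. The result was past the rule for 3 of 33 members, all negative, where 5.77% of all genes were negative and 3.20% positive: Cdkn1b at -1.40, Pclaf at -1.28 and Ccnb2 at -1.005. At 0.5 it was 9 members negative and 5 positive, against 20.2% and 12.5% of all genes. Ccnb2 was on the edge of the rule, at -0.93 with quantile normalization applied again and -0.99 with signals raised to the floor. Over the mean of its 2 probesets, Pclaf was at -0.44, and its second probeset alone was at 0.40. The median was -0.02 for replication, -0.32 for mitosis and 0.03 for G1 control, beside -0.09 over all genes.

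The rest of the pathway was read from a wider list of 166 other cell cycle genes, of which 162 were measured. In the replication fork and DNA ligation group, 14 of the 17 whose mean reached the floor were lower in Stat6-/- in medium and 11 with IL-4, beside 64.6% and 50.2% of all genes. Both Stat6-/- arrays lay below both wild-type arrays for 7 of the 17, 41.2% against the 26.0% of all genes. With IL-4 0 of 18 passed the 2-fold rule, beside 8.84%. Prim2, a primase subunit, and Fen1, which trims Okazaki fragments, each had a difference of -0.80 in Stat6-/- with IL-4, and were chosen after their values were seen. Rfc5, a subunit of the clamp loader, rose with IL-4 in wild type from 4.66 to 5.96 and read 5.19 and 5.40 in Stat6-/-. In the pre-replication complex group 1 of 8 with the mean at the floor was below without overlap, in kinetochore and centromere 2 of 5, in spindle and cytokinesis 3 of 7, and in mitotic entry and cohesin 3 of 13. Of those 8 pre-replication complex genes, 4 were lower and 4 higher in Stat6-/- in medium, and 3 lower and 5 higher with IL-4. Most kinetochore and spindle genes were near background: 6 of 18 and 8 of 19 reached the floor on any array. For Mad2l1, of the spindle checkpoint, the IL-4 effects differed by -1.04, and by -0.88 and -0.93 with quantile normalization applied again and with the intensity trend removed, short of the rule.

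Inhibitors of G1 and p53 targets leaned lower with IL-4 in wild type. Of 13, 2 fell and 0 rose, where 6.78% and 2.96% of all genes did, and 8 were lower and 2 higher by at least 0.5, against 23.3% and 11.9% of all genes, and the median was -0.54. In Stat6-/- cells 0 of 13 passed the 2-fold rule, beside 0.355% of all genes, and the median was 0.06. Other groups leaned the same way with IL-4 in wild type. The growth input group, which holds Myc, had 5 of 8 lower and 1 higher by at least 0.5, with a median of -0.56. Of the 7 macrophage markers 4 were lower and 0 higher by that size, with a median of -0.62. Csf1r, at -0.62, is in both of these lists and counts as lower in each. Ccng2, a cyclin G found in cells leaving the cycle, read 5.16 in medium and 3.45 with IL-4 in wild type, a fall of 3.26-fold, and 5.30 and 5.01 in Stat6-/-. Cdkn2c, the Cdk4 and Cdk6 inhibitor p18, read 4.46 and 3.34 in wild type and 4.48 and 4.21 in Stat6-/-. Its fall, of -1.12, was -0.94 with quantile normalization applied again and -0.98 with the intensity trend removed, short of the rule. For both, as for Cdkn1b, the wild-type IL-4 array stood below the other 3.

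Myc, the growth-promoting transcription factor, had the largest IL-4 difference in wild type of the 162. It read 3.57 in medium and 5.95 with IL-4 in wild type, a rise of 5.22-fold, and 2.93 and 2.88 in Stat6-/-. With IL-4 it was 8.43-fold lower in Stat6-/- than in wild type. Nme1, a nucleoside diphosphate kinase of nucleotide supply, rose from 4.01 to 5.29 in wild type and read 3.26 and 3.81 in Stat6-/-, a fall of 2.80-fold against wild type with IL-4. Egr1, an immediate early gene of growth factor signalling, read 4.68 and 3.92 in wild type and 3.61 and 3.68 in Stat6-/-, a fall of 2.10-fold in medium. The call ended, at -0.92 and -0.93, with quantile normalization applied again and with the intensity trend removed. Csf1r, the M-CSF receptor, read 10.87 and 10.25 in wild type and 10.87 and 10.60 in Stat6-/-.

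For the factors of the E2F and CHR motifs, a group of 13 E2F, Rb and DREAM genes was read. Of the 11 to 13 that could have passed the 2-fold rule, 0 did in any comparison, where between 0.355% and 9.74% of all genes did. E2f1 was between 3.73 and 3.86. E2f1, Rbl2, Rb1, Foxm1 and Csf1r are named after their values were seen. Rbl2, the p130 pocket protein of resting cells, differed by -0.98 with IL-4 in wild type and by -0.75 in Stat6-/-, and Rb1 by -0.78 and -0.41. Foxm1 reached the floor on 1 array, at 2.54 in Stat6-/- with IL-4. Of 30 histone genes found by symbol, 19 could have passed the 2-fold rule in each of the comparisons named next. H2bc14 rose with IL-4 in Stat6-/- from 3.81 to 5.01, which is 1 of 19 against 0.240% of all genes. H2bc4 fell in Stat6-/- in medium, from 3.94 to 2.80, which is 1 of 19 against 1.15%. Histone genes are near-identical copies that the array can fail to separate, and with probesets of several symbols included these differences were 0.48 and -0.60. With IL-4, 14 of the 17 histone genes whose mean reached the floor were higher in Stat6-/- and 3 lower, with a median of 0.20. In medium 6 were higher and 11 lower, with a median of -0.10. Of all genes, 50.2% were lower with IL-4 and 64.6% in medium.

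**Figure D4:**
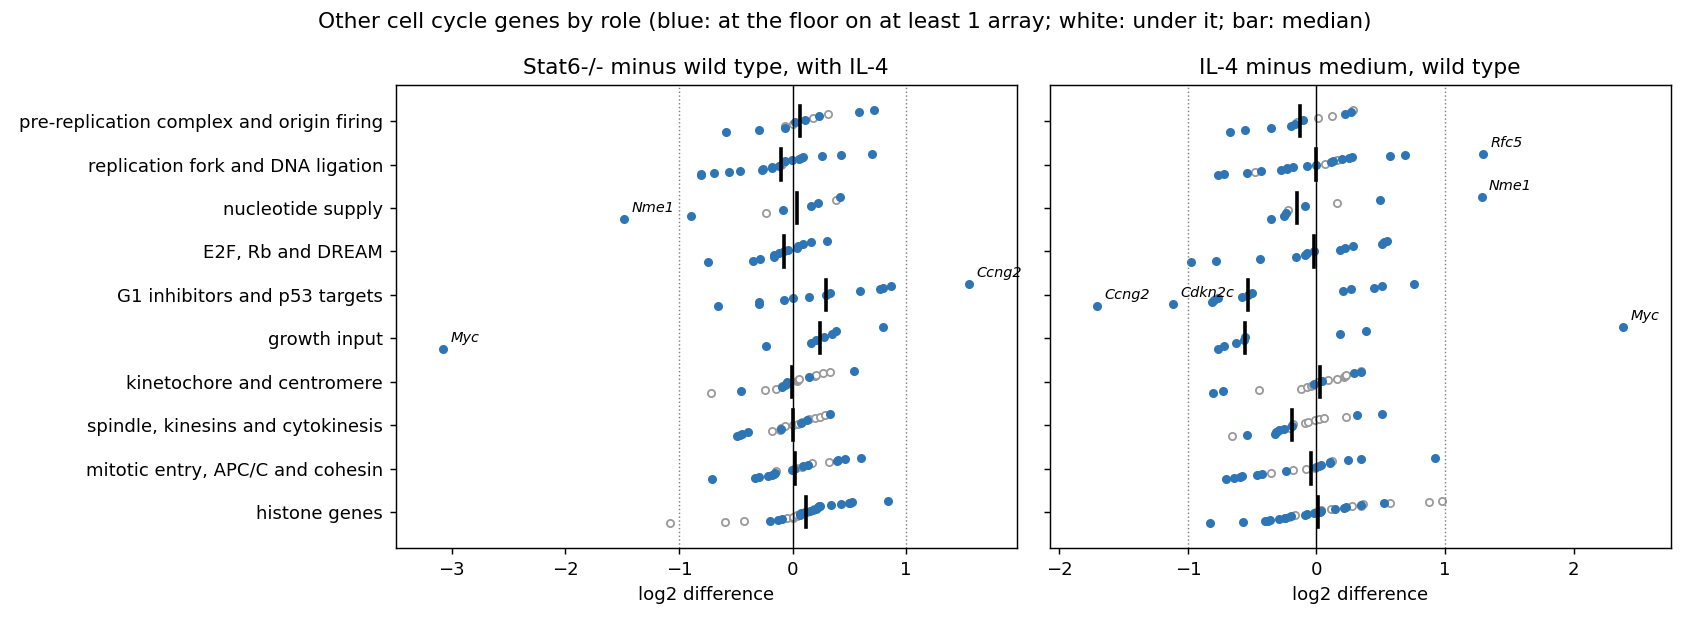
Log2 differences of 162 other cell cycle genes by role, Stat6-/- minus wild type with IL-4 (left) and IL-4 minus medium in wild type (right), with blue points for genes at the floor on at least 1 array, white points for genes under it, and bars for the median. Myc stands apart at -3.08 on the left and 2.39 on the right, and Ccng2 at 1.55 and -1.71.

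Markers of other cells that could divide in such cultures were low, in a range that also held members such as Cdc6 and Tyms. Of 8 markers of bone marrow progenitors, 3 reached the floor on any array, Prtn3, Gata2 and Cebpe, with a highest value of 3.12. Kit, Cd34, Flt3, Mpo and Elane were under the floor on every array. Summed over the 8, the log2 signals were 16.7 and 17.2 in wild type and 17.0 and 17.4 in Stat6-/-, in medium and with IL-4. The 14 replication members summed to 63.0 and 63.5 against 56.1 and 57.8, over more genes, so these sums do not compare levels. Among T cell, B cell, neutrophil and erythroid markers the highest value was 3.28, for Cd79b, and among 5 fibroblast markers 3.41, for Col1a1. Cd79b, Col1a1, Col1a2 and Col3a1 were above the floor on all 4 arrays. Of the 7 macrophage markers, 3 fell with IL-4 in wild type, Adgre1, Fcgr1 and Mertk, and 0 rose, where 6.78% and 2.96% of all genes did. The summed signals of the 7 were 69.2 and 63.5 in wild type and 68.1 and 67.5 in Stat6-/-. The part of these markers in the differences of the members was not tested.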

How the data were processed

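Expression was measured on 4 Affymetrix whole-transcript arrays, 1 per group. The deposited table holds a log2 signal for each probeset on each array, made with RMA in Affymetrix Expression Console per the submitters' processing notes. RMA corrects background, quantile-normalizes the arrays and summarises probes, which shrinks differences of weak genes. Its version, its settings and a genome build are not stated in the labels, and base 2 was inferred from how far the values range. Of 35557 probesets, 21789 had 1 symbol, 1621 several and 12147 none in the annotation used here. Of the first, 21698 matched an Entrez identifier in a RefSeq table (GRCm38.p6), used for names.

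Log2 differences were computed for 4 pairs of arrays and for the difference of IL-4 effects with Python 3.11.15, pandas 2.3.3 and numpy 2.4.6, and lowess trends (fraction 0.3) with statsmodels 0.14.6. The calling step was checked on simulated arrays. These held no noise and shifts beyond the rule, so they checked the code and not the rate of false calls. The rule named all 40 members, Stat6 and, of the other cell cycle genes, those past the rule of size, up to 4 per role. Others were chosen after their values were seen. The members and lists were chosen with earlier results of these data known. No p-value was computed. Promoters and motifs are from RefSeq windows. Alternatives were other normalizations, floors, probeset rules and a size of 0.5.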

Additional observations from a re-analysis of the deposited data

Results flagged for a closer look

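The IL-4 effects of the 2 genotypes had opposite signs, with a difference past the rule of size, for 2 of 33 members (6.06%) and 3 of 114 other cell cycle genes (2.63%) that could pass it, against 5.23% of all genes. These differences were not tested, as each group had 1 array. Wild type minus Stat6-/-, the difference was -1.28 for Pclaf, the clamp-binding protein, whose signals without and with IL-4 were 4.67 and 4.04 on the wild-type arrays and 2.98 and 3.63 on the Stat6-/- arrays. The second Pclaf probeset had IL-4 effects of 0.50 in wild type and 0.09 in Stat6-/-, not opposite in sign, and a difference of 0.40. The difference was -1.005 for the cyclin gene Ccnb2, with 3.31 and 2.65, then 2.504 and 2.85. With quantile normalization applied again Ccnb2 was at -0.93, short of the rule. For Myc the difference was 2.44, with 3.57 and 5.95, then 2.93 and 2.88, where the effect in Stat6-/- was only -0.05. The difference was -1.04 for the checkpoint gene Mad2l1, with 4.25 and 3.52, then 3.75 and 4.07, and -1.21 for the histone gene H2bc4, with 3.94 and 3.58, then 2.80 and 3.64. Mad2l1 was at -0.88 with quantile normalization applied again, and H2bc4 at -0.29 with probesets of several symbols included, both short of the rule.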

How the results depend on the processing

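No paired analysis was possible because each group held 1 array and the labels carry no replicate numbers. No array could be left out for the same reason. The count of members past the rule went from 2 to 1 with IL-4 in wild type, and the median gap between replication and mitosis in medium from -0.18 to 0.027 for the genotype difference, with quantile normalization applied again. With the intensity trend removed, the counts were 1 for the IL-4 effect of each genotype and 1 for the genotypes in medium, and the gaps were 0.26 for IL-4 in wild type, 0.11 for the genotypes in medium, -0.16 with IL-4 and 0.42 for the difference of IL-4 effects. With a size of 0.5 in place of 1, counts of members were 9 and 6 for IL-4 in wild type and Stat6-/-, 11 and 12 for the genotypes in medium and with IL-4, and 14 for the difference of effects. With signals raised to the floor the mitosis median was 0, and the gaps were -0.040, 0.16, -0.46, -0.39 and -0.016 in the same order, with 2 mitosis members below without overlap. With the floor at the 75th percentile, 2 replication members and 1 mitosis member, Cenpa, were left, with gaps of 1.44, 0.63, -1.31, -2.11 and 0.81 and counts without overlap of 2 and 0. Without Mki67, Top2a and Ccna2 the gap was -0.094 for IL-4 in wild type and 0.12 for the difference of effects, and with the mean of all probesets it was -0.041 for IL-4 in wild type. With IL-4, 14 of 14 replication members were lower in Stat6-/- with arrays shifted to one median, against 55.6% of all genes. That shift could only widen the differences, since the Stat6-/- array had the higher median, 2.28 against 2.23. All 3 probeset choices gave 14 of 14, against 49.5% to 50.4%, but they touch only Pcna, Pclaf and Tk1. No floor and signals raised to the floor could not change the 14 of 14, as the lowest signal of these members was 2.56. The count was 13 of 14 with quantile normalization applied again (48.8% of all genes) and with the intensity trend removed (49.3%). In medium those 2 settings gave 10 of 14 replication and 11 of 15 mitosis members lower, against 48.3% and 51.0% of all genes, and with IL-4 9 of 15 mitosis members. With quantile normalization applied again 8 of 14 replication and 5 of 15 mitosis members were below without overlap, against 18.9%. The share of higher genes among all that passed the rule went from 30.4% to 45.2% with quantile normalization applied again and 46.0% with the trend removed for IL-4 in wild type, from 20.8% to 37.2% and 28.9% for the genotypes in medium, and from 35.7% to 47.7% and 46.4% for the difference of effects. The first of these settings moved the median of all genes from -0.12 to 0.01 for IL-4 in wild type and for the genotypes in medium. The counts without overlap and of lower members were settings chosen after seeing the data, and the cause of these shifts was not tested.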
